A study of Rattus norvegicus with 4 samples.

Results

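The comparison set day 7 against day 1 of a time course in rat samples labelled brain, adrenal medulla, within undigested and within digested samples, and asked which transcripts differed between the days in the same way in both. Its members were all 4 arrays of the series, 1 array of total RNA for each digestion state at each day, and 1263 of the 1322 probe sets, those that are not controls. A probe set is a group of short oligonucleotide probes that reads 1 transcript or a few related transcripts. The labels do not say what was digested, which agent the time course followed, or which strain, age or number of animals gave the RNA, and the purpose of the study is not stated in them. The undigested and digested samples of a day are the nearest to replicates that the design holds, and nothing says whether they came from separate animals or cultures.

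The adrenal medulla is made up largely of chromaffin cells, neural crest cells that make catecholamines from tyrosine, store them in dense granules together with peptides such as enkephalins and neuropeptide Y, and release both by calcium-driven exocytosis. Chromaffin cells are close relatives of sympathetic neurons, can extend neurites under growth factors, and have been studied as tissue for transplantation into the nervous system. They carry much of the synaptic release machinery of neurons, and the genes on these arrays are mainly of neuronal signalling, ion channels and stress responses.

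Deposited values were linear signal intensities. All arrays were brought to the same median, values under a floor of 51.8 (the 20th percentile of all scaled values) were set to it, and log2 was taken. The brighter 632 probe sets, whose mean log2 signal reached the overall median (a signal of 229), were analysed; they covered 386 of the 720 named genes. A day difference is log2 of day 7 minus log2 of day 1 within a digestion state, and the mean difference is the mean of both, so that a value of 1 is 2-fold. Signals below are scaled signals and are always given in the order undigested day 1, digested day 1, undigested day 7, digested day 7. The filter used all 4 arrays, so a probe set near its limit may have passed only through the day at which it was high. With 1 array per group, the number of arrays limits the precision.

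Both day 7 arrays stood apart in their control probe sets. Transcripts added at hybridisation, read by 9 probe sets, had a median day difference of 0.18 in the undigested and -1.32 in the digested samples, and those carrying a poly-A tail, read by 12, had 0.26 and 0.42. The beta-actin signal ratio of 3′ to 5′, which rises as RNA or its labelled copy gets less complete, was 2.66 on the undigested day 7 array and 1.35 to 1.48 on the others, while that of GAPDH was 1.18 against 1.01 to 1.10 and that of hexokinase 1.40 against 1.05 to 1.31. The part of these in any day difference was not tested, so both states are given throughout. Of the chromaffin markers, Th, Dbh, Ddc, Penk and Npy were in the analysed set, while 0 of 5 adrenal cortex markers had a probe set named in the table used. Summed over the 9 neuronal markers with a probe set, the signal was 231711, 248318, 216868 and 171499, and over the 6 chromaffin markers 270997, 288783, 352324 and 237390, each gene by its brightest probe set over all arrays. Th alone gave 221633, 233350, 256725 and 163625 of the chromaffin sum. By these probe sets Dbh, Ddc, Penk and Slc18a2 were higher at day 7 in both states, Npy was lower in both, and Th was higher in the undigested samples alone. The 3 astrocyte markers summed to 401 to 605, and vimentin, of fibroblasts among others, was under the floor on all 4 arrays. In bulk RNA, fewer cells of a type and less RNA per cell cannot be told apart.

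Both states showed a day difference in the same direction for 389 of the 632 probe sets, and the 2 differences had r = 0.28 across probe sets, which share their arrays and are not independent. The median difference was 0.17 in the undigested samples, 0.04 in the digested samples and 0.10 for their mean. The SD over probe sets was 0.72 and 0.61 in the states and 0.53 for the mean. With values as deposited the median of the mean shifted by -0.10, and with quantile normalisation by -0.09, so differences of that size have no settled direction. Brighter probe sets were more alike in both states. In 4 bins of 158 probe sets by signal, r was 0.11 in the dimmest (signals 229 to 537), then 0.36 and 0.50, and 0.55 in the brightest (signals of 4788 and above). The share with the same direction was 54.4%, 54.4%, 70.9% and 66.5%.

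A mean difference of at least 2-fold was seen for 18 probe sets higher (2.85% of 632) and 26 lower (4.11%) at day 7, and 38 of these 44 had the same direction in both states. The dimmest bin held 26 of the 44, and the brightest held 2. With values as deposited the split was 11 higher and 34 lower, and after quantile normalisation 13 and 29. At least 2-fold in both states separately were 5 higher (0.791%) and 6 lower (0.949%). Those without a single gene name had means of 1.25 and 1.11 among the higher and -1.69 among the lower, and are not described further. Among all 1263 probe sets, dim ones included, the same rule gave 27 higher (2.14%) and 19 lower (1.5%). An additive limma fit of day and digestion, which has 1 residual degree of freedom, gave 1 probe set with a Benjamini-Hochberg adjusted p under 0.05 (0.158% of 632), that of Gsta1. Its unadjusted p was under 0.05 for 91 probe sets, 47 higher and 44 lower, against 31.6 expected. The error of this fit holds the change of the day difference between digestion states together with a spread pooled over probe sets, and it leaves out whatever the samples of a day share. All other differences below are sizes that did not pass this test.

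**Figure D1:**
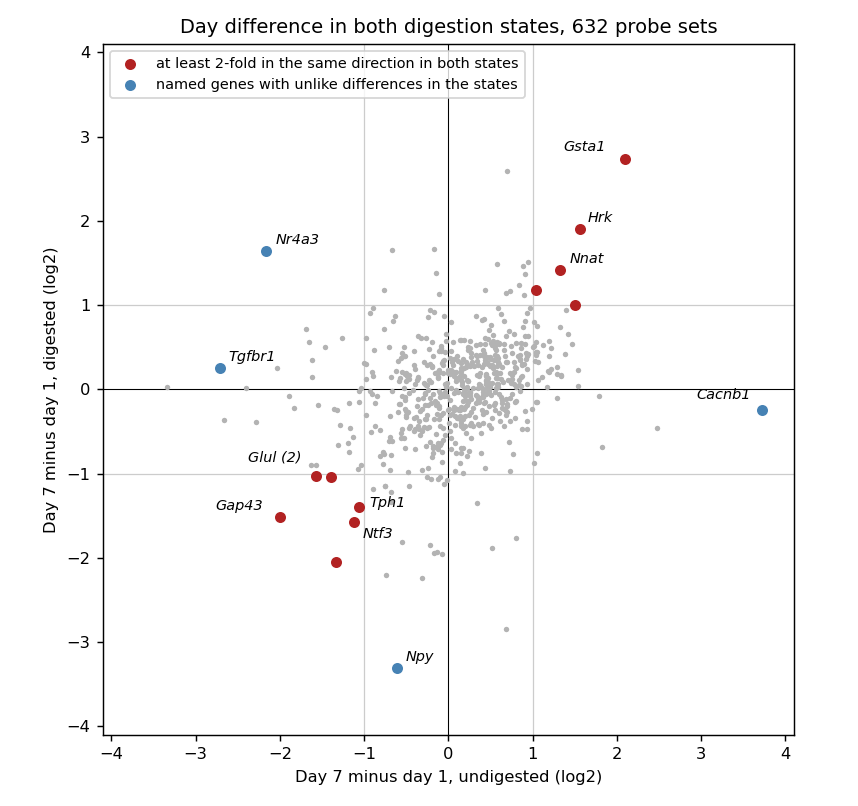
Day 7 minus day 1 (log2) in the undigested samples (x axis) against the digested samples (y axis), 1 point per analysed probe set (632). Red points are the 11 probe sets at least 2-fold in the same direction in both states, blue points are named genes with unlike differences in the states, and grey lines mark 2-fold. Gsta1 lies alone at the upper right (2.09 and 2.74), and Cacnb1 (3.72 and -0.25) and Nr4a3 (-2.16 and 1.64) lie off the diagonal.

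Genes of antioxidant defence and detoxification had the highest median among the gene families, 0.64 over the 6 analysed of 9, beside 0.09 over all 386 genes. Of the 6, 3 had a mean at least 1.5-fold higher, 0 lower, and 4 were higher in both states, where 13.2% of all analysed genes had a mean at least 1.5-fold higher, 9.33% at least 1.5-fold lower, 35% were higher in both states and 22.5% lower in both. Gsta1, an alpha-class glutathione S-transferase that conjugates electrophiles and lipid peroxides to glutathione, had signals of 130, 78.2, 556 and 522. Both day 7 arrays were above both day 1 arrays. The day 1 signals of Gsta1 were below the 229 that the mean had to reach. It was thus in the analysed set only through its day 7 signals, and its test carries that limit. Its differences were 2.09 and 2.74, a mean of 2.42 (limma SE 0.32, adjusted p = 0.0283). Under the values as deposited limma's adjusted p was 0.330, and with quantile normalisation 0.201. The suffix of the probe set marks it as shared by related sequences, so other members of the family may add to its signal. Gsta2, its close relative, was too dim for the analysed set, with signals of 99.4, 79.6, 216 and 182 and differences of 1.12 and 1.19.

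The metallothionein genes with a probe set, of small cysteine-rich proteins that bind zinc and copper and scavenge radicals, were higher at day 7 in both states. Mt2A had signals of 3014, 3145, 5012 and 7092, differences of 0.73 and 1.17 and a mean of 0.95 (limma SE 0.31, adjusted p = 0.248). Mt1 had signals of 5450, 6864, 8282 and 10017 and differences of 0.60 and 0.55. Both genes were above their day 1 signals on both day 7 arrays. Mt3, the brain form of the family, was below the analysed set, at 120, 101, 189 and 183, with differences of 0.65 and 0.86. These 3 genes lie close together on chromosome 19 on the minus strand of the GRCr8 assembly. Their promoters are shown because the 3 genes had the same direction: the 250 bases before each RefSeq start, read 5′ to 3′ on the gene's strand, with capitals marking every match, on either strand, to the core of the metal response element (TGCACNC or TGCGCNC), to which the zinc-sensing factor MTF1 binds. The windows are chr19:10832976-10833225 for Mt1, chr19:10838709-10838958 for Mt2A and chr19:10856081-10856330 for Mt3.
Mt1: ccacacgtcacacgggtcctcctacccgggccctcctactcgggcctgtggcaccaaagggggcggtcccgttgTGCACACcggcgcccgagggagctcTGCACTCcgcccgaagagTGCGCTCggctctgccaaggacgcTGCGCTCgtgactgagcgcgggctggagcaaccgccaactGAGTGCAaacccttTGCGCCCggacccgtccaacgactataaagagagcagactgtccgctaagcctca
Mt2A: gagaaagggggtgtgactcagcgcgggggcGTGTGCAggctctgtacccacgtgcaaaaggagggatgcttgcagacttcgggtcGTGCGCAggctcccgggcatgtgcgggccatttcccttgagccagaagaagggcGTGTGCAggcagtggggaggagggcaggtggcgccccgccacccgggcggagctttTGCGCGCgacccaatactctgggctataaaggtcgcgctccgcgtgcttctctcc
Mt3: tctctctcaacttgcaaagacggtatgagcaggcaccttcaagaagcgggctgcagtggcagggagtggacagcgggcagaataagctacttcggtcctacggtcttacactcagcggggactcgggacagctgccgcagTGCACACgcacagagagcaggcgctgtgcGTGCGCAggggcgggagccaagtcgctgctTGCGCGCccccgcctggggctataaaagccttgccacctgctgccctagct
The core matched 6 times in Mt1, 4 times in Mt2A and 3 times in Mt3. Of 33469 promoter windows of the same length, 6883 (20.6%) held at least 1 match and 392 (1.17%) at least 3. A match describes the letters and does not show a bound site.

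Hmox1, the inducible heme oxygenase that breaks heme down to biliverdin, iron and carbon monoxide, was higher by both of its probe sets. The brighter gave 25244, 27082, 51838 and 35886, with differences of 1.04 and 0.41, and the other gave differences of 0.72 and 0.69. The superoxide dismutases did not share this direction. The mean over the 3 probe sets of Sod1, the cytosolic enzyme, was -0.34, and the mitochondrial Sod2 had opposite differences of -0.71 and 0.50.

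The enzymes of catecholamine synthesis did not differ together. Th, tyrosine hydroxylase, which sets the rate of the pathway, had signals of 221633, 233350, 256725 and 163625, with differences of 0.21 and -0.51. The digested day 7 array was the lowest of the 4 and the undigested day 7 array the highest. Ddc, the decarboxylase that turns L-DOPA into dopamine, had 46082, 51146, 88923 and 68611 by its brighter probe set and differences of 0.95 and 0.42, while its other probe set gave 1.78 and -0.08. Dbh, which turns dopamine into noradrenaline, had 1711, 2461, 4175 and 2961 and differences of 1.29 and 0.27. By the brighter probe set of Ddc, and for Dbh, both day 7 arrays were above both day 1 arrays, with the higher day 7 signal in the undigested sample. Maoa, which breaks catecholamines down, was lower in both states (means of -0.28 and -0.54 over 3 probe sets). The family median was 0.31 over 4 of 7 genes, 0.75 in the undigested and -0.17 in the digested samples. Slc18a2, the vesicular monoamine transporter, was near the floor, with signals of 31.3, 82.1, 113 and 161 by its brighter probe set.

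The stored peptides differed in direction. Penk, the precursor of the enkephalins, had signals of 967, 1168, 2012 and 1973 and differences of 1.06 and 0.76 (mean 0.91, limma SE 0.31, adjusted p = 0.256). A dimmer probe set of the gene gave 1.13 and 2.16, the latter from a day 1 value at the floor. Npy, the precursor of neuropeptide Y, had signals of 574, 577, 376 and 58.2 and differences of -0.61 and -3.31, so that its mean of -1.96 rests largely on a signal just above the floor on the digested day 7 array. Its receptor gene Npy1r ran the other way, at 1669, 1856, 3113 and 4030, with differences of 0.90 and 1.12 and a mean of 1.01 (limma SE 0.31, adjusted p = 0.248). Vgf, a granin-like precursor of secreted peptides, had 35868, 35188, 25724 and 17838 and differences of -0.48 and -0.98. For Penk and Npy1r both day 7 arrays were above both day 1 arrays, and for Npy and Vgf both were below. Tph1, tryptophan hydroxylase, the first enzyme of serotonin synthesis, was lower at 479, 621, 229 and 235, with differences of -1.06 and -1.40 and a mean of -1.23 (limma SE 0.31, adjusted p = 0.198).

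**Figure D2:**
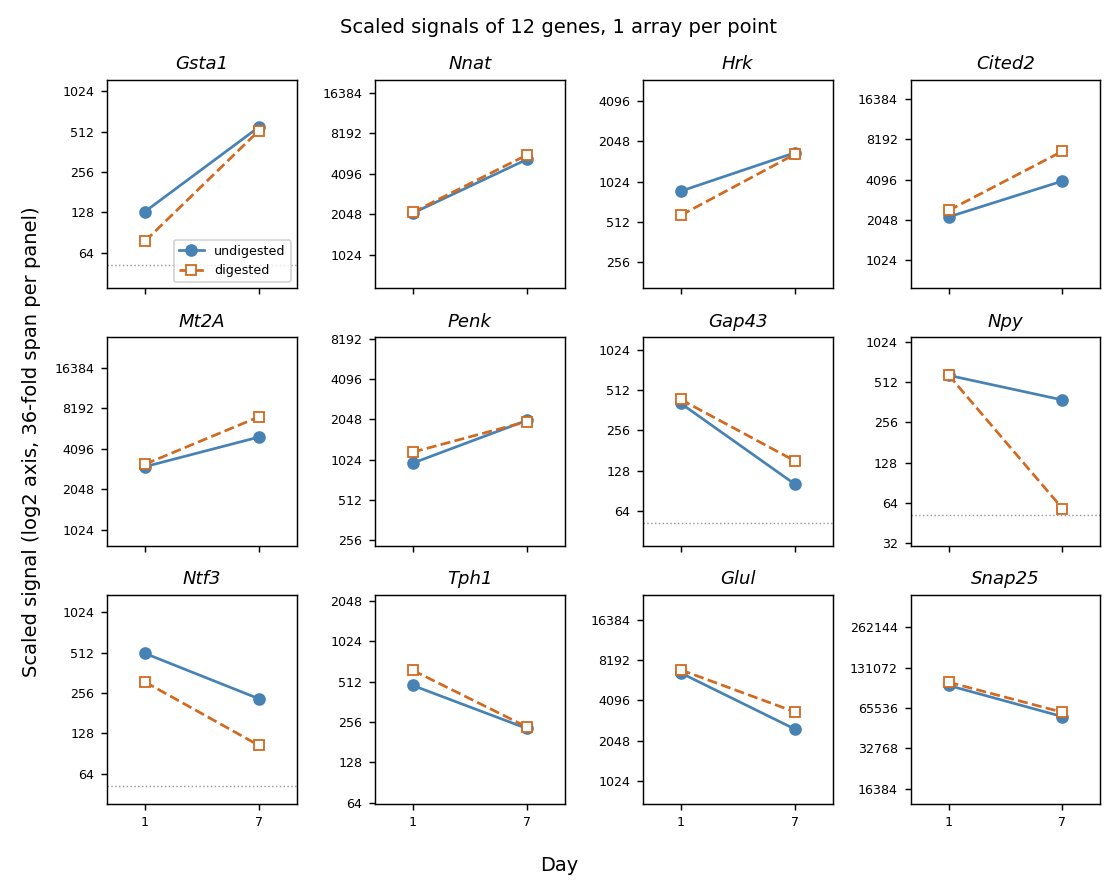
Scaled signals of 12 genes at day 1 and day 7 (x axis), with a log2 y axis spanning 36-fold in every panel; each point is 1 array, filled circles are undigested and open squares digested samples, and the dotted line is the floor of 51.8. The lines of both states run close to parallel for Nnat, Penk, Glul and Snap25, while Npy drops to 58.2 on the digested day 7 array alone.

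Release machinery as a family showed no common direction. The 24 analysed of 32 genes of synaptic vesicles and exocytosis had a median of 0.03, which turned to -0.07 under the deposited scaling and to -0.09 under quantile normalisation; 6 were higher in both states and 7 lower in both, beside 35% and 22.5% of all genes. At the ends stood 3 genes. Snap25, the SNARE protein of the plasma membrane, had 4 analysed probe sets that all gave less at day 7 in both states, with means from -0.97 to -0.66. The brightest had signals of 96677, 102213, 56595 and 61000 and differences of -0.77 and -0.74. Syn2, a synapsin that tethers vesicles to the cytoskeleton, was lower by all 3 of its probe sets, with means from -1.005 to -0.59, the brightest reading 5590, 6706, 3492 and 2666. Rab3a, the vesicle GTPase, was higher, at 2459, 2707, 3962 and 5978 with differences of 0.69 and 1.14. The other 21 genes stayed within 1.5-fold, among them the SNARE genes Stx1a at -0.42 and Stx8 at 0.31, and Syp, an integral vesicle protein, had a mean of 0.19.

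Among genes of axon growth, guidance and adhesion, the 8 analysed of 22 had a median of 0.32 but a wide spread. All 8 had the same direction in both states, 5 higher and 3 lower. Of all analysed genes, 35% were higher in both states, 22.5% lower in both and 42.5% opposite. Gap43, which is enriched in growth cones, had signals of 407, 435, 102 and 152 and differences of -1.999 and -1.52. It stood at the lower limit of the analysed set, a signal of 229. It was analysed only through its day 1 signals, as both day 7 signals were below that limit. Its mean of -1.76 (limma SE 0.32, adjusted p = 0.0811) was the lowest among the 6 analysed probe sets at least 2-fold lower in both states. Cspg5, a brain chondroitin sulfate proteoglycan, was lower at 248, 599, 96.8 and 511, where the digested day 7 array stayed above the undigested day 1 array. Nrxn2, a presynaptic adhesion protein, was higher at 314, 318, 564 and 747, with differences of 0.84 and 1.23, and Nrp1, a receptor for semaphorins and VEGF, had differences of 1.22 and 0.24. Of the cytoskeleton, neurofilament and other intermediate filament genes had a median of -0.17 over 4 of 5, with Nefm at 40879, 42918, 38105 and 20845, low on the digested day 7 array alone. The 4 probe sets of the tubulin gene Tubb5 ranged from -1.04 to -0.15, and Map1a, a microtubule-binding protein, was higher with differences of 0.90 and 0.31.

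Of the neurotrophins and their receptors, Ntf3, neurotrophin 3, was lower at 505, 310, 232 and 104, with differences of -1.12 and -1.57 and a mean of -1.35 (limma SE 0.31, adjusted p = 0.198). By its day 7 log2 signals alone Ntf3 would have missed the analysed set. The others stayed within 1.5-fold by gene, which left a family median of 0.02 over 7 of 11 that turned negative under both other scalings. Ngfr, the low-affinity neurotrophin receptor, had 23400, 23806, 27335 and 24199. The 3 probe sets of Bdnf disagreed, from -0.64 to 0.92. Of the growth factors, Egf was lower at 434, 359, 89.1 and 273, and Igfbp6, a binding protein of insulin-like growth factors, at 9597, 10183, 3841 and 8619; in both, the undigested day 7 array was the lowest by a wide margin. In that family 5 of 21 genes had a mean at least 1.5-fold lower and 2 at least 1.5-fold higher, beside 9.33% and 13.2% of all genes.

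Genes of energy and glutamate metabolism included a pair with probe sets in full accord. Glul, glutamine synthetase, which joins ammonia to glutamate, was lower by all 3 probe sets. The brightest gave 6550, 6904, 2499 and 3356, with differences of -1.39 and -1.04, a mean of -1.22 (limma SE 0.31, adjusted p = 0.198), and the means of the others were -1.30 and -0.71. Ckb, the brain-type creatine kinase that buffers ATP, was lower by both, the brighter at 10675, 12211, 3590 and 6542 with differences of -1.57 and -0.90. All day 7 signals of these probe sets lay below all their day 1 signals. Glul is also a product of astrocytes, whose markers with a probe set, Slc1a3, Slc1a2 and S100b, had mean differences of 0.06, 0.33 and 0.64; their part in the Glul difference was not tested. Another gene with a gap between the days, Nnat, which codes for neuronatin, a small membrane proteolipid of developing brain and endocrine cells, had 2085, 2117, 5244 and 5655, with differences of 1.33 and 1.42 and a mean of 1.37 (limma SE 0.31, adjusted p = 0.198). Cited2, a transcriptional co-regulator that competes with hypoxia-inducible factors for CBP and p300, had 2154, 2409, 3993 and 6668, with differences of 0.89 and 1.47.

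In the BCL2 family and apoptosis list, 9 of 14 genes were analysed with a median of 0.25, and 1 of the 9 had a mean at least 1.5-fold higher, beside 13.2% of all analysed genes. That gene was Hrk, a BH3-only protein that promotes neuronal death. The brightest of its 3 analysed probe sets gave 870, 575, 1681 and 1637 with differences of 0.95 and 1.51, and the others had means of 1.73 and 1.04. The first of these, at least 2-fold in both states, read 276, 170, 819 and 634 (limma SE 0.31, adjusted p = 0.0811). By its day 1 log2 signals alone it would have missed the analysed set, so its test carries that limit. A further, dim probe set was at the floor on both day 1 arrays and read 606 and 462 at day 7, so its differences of 3.55 and 3.16 are set by the floor. Bax, which permeabilises mitochondria, had probe set means from 0.44 to 0.60, and Bcl2l1, which opposes it, from 0.42 to 0.61; all 6 of these probe sets were higher at day 7 in both states.

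Heat shock chaperones had a median of 0.13 over 6 of 7 genes, which turned to -0.03 after quantile normalisation. Hspb1, the small chaperone HSP27 that binds actin and unfolded proteins, was lower by all 3 probe sets, with means from -0.96 to -0.80, the brightest at 31742, 30739, 18128 and 17715. The mitochondrial chaperonins Hspe1 and Hspd1 had differences of 0.92 and 0.35, and 0.60 and 0.06, by their brightest probe sets. Of the immediate early genes, which respond to stimuli within minutes to hours, 8 of 9 were analysed with a median of -0.13. Jun, a subunit of the AP-1 factor, was lower at 2410, 2534, 971 and 1600, and Jund, its relative, at 372, 418, 104 and 359. The probe sets of Egr1 did not share a direction: the brightest gave 1.02 and 0.51, but the mean over both analysed probe sets was 0.32. A dim probe set of the gene, with 1 value at the floor, gave -1.16 and -1.53. Fos, by 3 probe sets, had a mean of -0.19.

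**Figure D3:**
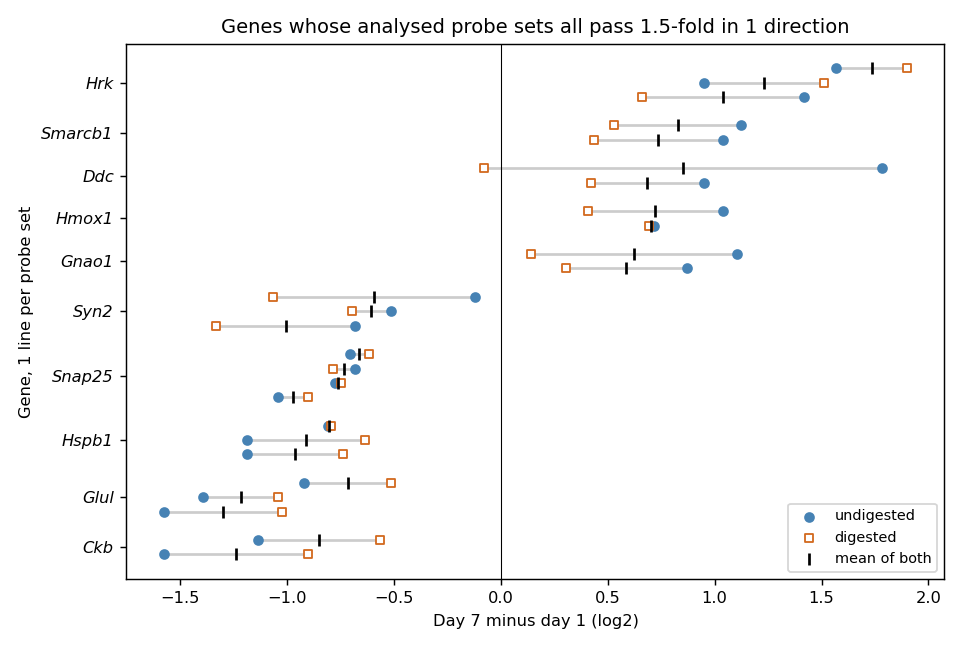
Day 7 minus day 1 (log2, x axis) for the 10 genes whose analysed probe sets all had a mean at least 1.5-fold in 1 direction, 1 line per probe set; filled circles are undigested samples, open squares digested samples and black ticks their mean. The 4 lines of Snap25 lie between -0.97 and -0.66 by their means, and 1 line of Ddc crosses 0 in the digested samples.

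Probe sets of the same gene gave a measure of how well a difference repeats within these arrays, though not between samples. Several probe sets were analysed for 125 genes (305 probe sets), of which 79 had all of them in 1 direction, and probe sets of 1 gene had a pooled SD of 0.36 in their mean difference. Among the 47 of these genes with a probe set past 1.5-fold, 33 had 1 direction. All probe sets passed 1.5-fold in the same direction for 10 genes, which were picked for this after the values were seen: Hrk, Smarcb1, Ddc, Hmox1 and Gnao1 were higher, and Syn2, Snap25, Hspb1, Glul and Ckb lower. Smarcb1, a core subunit of the SWI/SNF chromatin remodelling complex, had means of 0.83 and 0.74, and Gnao1, the alpha subunit of the neuronal G protein Go, 0.62 and 0.59. In 10 genes the means spanned more than 1 on the log2 scale, and in 9 of them the probe sets had both directions. These included the nicotinic receptor gene Chrna7, from -1.19 to 0.63, the G protein beta gene Gnb1, from -1.18 to 0.46, and Nf1, from -1.66 to 0.73.

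Of the receptors for fast transmission, the glutamate receptors and their scaffolds had mostly positive differences. The 13 analysed of 29 genes had a median of 0.31, with 8 higher in both states and 2 lower in both, against 35% and 22.5% of all genes. Gria4, an AMPA receptor subunit, had 133, 184, 348 and 354 with differences of 1.39 and 0.94 and a mean of 1.17 (limma SE 0.31, adjusted p = 0.198). Both day 1 signals of Gria4 were below the limit of 229, so it was analysed only through its day 7 signals. Gria2, the subunit that limits calcium entry through AMPA receptors, had 0.38 and 0.54, and Grip2, a scaffold of these receptors, had 0.93 and 0.40. The NMDA receptor subunit Grin2a had a mean of 0.37. The family's other 16 genes were too dim to analyse. Among dim probe sets, 1 of Grip2 gave -1.72 and -1.57 and 1 of Grin1, an NMDA receptor subunit, gave -1.91 and -1.67, against the direction above. That of Gria3, an AMPA receptor subunit, gave 1.42 and 1.34. Those of Grin1 and Gria3 had values at the floor.

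Inhibitory and nicotinic receptors had medians just below 0. For GABA and glycine receptors the median over 5 of 20 was -0.15, which turned to 0.25 after quantile normalisation. The analysed set was chosen anew under each scaling, so the probe sets behind these medians may differ. Of the 5, 4 had opposite directions in the 2 states, beside 42.5% of all 386 analysed genes. Gabra3, a GABA-A receptor subunit, read 457, 529, 394 and 147, low on the digested day 7 array. The median over 12 of 22 nicotinic, serotonin-gated and P2X channel genes was -0.04. Chrna3, the nicotinic subunit through which acetylcholine drives chromaffin cells, had 4166, 4151, 5268 and 5250, differences of 0.34 and 0.34. Chrnb4, its partner subunit, had -0.56 and -0.57 by its brighter probe set and a mean of -0.26 over both.

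Of the ion channels, calcium channel genes had a median of 0.42 over 7 of 13, at 0.49 in the undigested and -0.02 in the digested samples. Cacna1b, the pore subunit of the N-type channel that serves release, read 1575, 1721, 2952 and 2675 by its brighter probe set, with differences of 0.91 and 0.64. Cacna1g, a T-type channel, had 0.44 and 0.60. The list named for chloride channels, set by gene symbol, had a median of 0.50 over 4 of 5 genes. In it, Clcn3, an endosomal and vesicle exchanger, read 14235, 14868, 27065 and 20076. Clns1a, listed by its symbol alone, had differences of 0.44 and 0.54 by its brighter probe set. Its gene mean of 0.73 was the highest of the list. Potassium channel genes, 20 of 49, had a median of 0.15, with 4 at least 1.5-fold higher and 2 lower, shares close to the 13.2% and 9.33% of all genes. Sodium and acid-sensing channel genes had 0.23 over 5 of 15, at -0.14 in the undigested and 0.60 in the digested samples. Kcnh4, of the ether-a-go-go family, read 179, 430, 359 and 611, where the digested day 1 array was above the undigested day 7 array. Kcnj14, an inward rectifier, was lower at 394, 448, 246 and 192.

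Transmitter receptors coupled to G proteins had a median of 0.02 over 18 of 57 that turned to -0.08 in the values as deposited. Beside Npy1r, the bradykinin receptor gene Bdkrb2 was higher at 422, 342, 855 and 594. Lower were Htr1d, a serotonin receptor, at 405, 328, 360 and 85.5, and Avpr2, the renal-type vasopressin receptor, at 399, 295, 108 and 279, each low on 1 day 7 array. Downstream of these receptors, Grk2, a kinase that desensitises them, read 2005, 2246, 3216 and 3471, and Arrb2, an arrestin, was lower by its brightest probe set at 4629, 4801, 2727 and 2811. Over all 5 probe sets of Arrb2 the mean was -0.31.

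Protein kinases and phosphatases, with 28 of 35 genes analysed, had a median of 0.11, which was 0.00074 after quantile normalisation. In both states 14 were higher and 2 lower, beside 35% and 22.5% of all genes. Fyn, a kinase of the Src family, had 2377, 2540, 6185 and 3385 with differences of 1.38 and 0.41. Mapk8ip2, a scaffold of JNK signalling, read 16283, 18644, 30524 and 27071. The 6 probe sets of Mapk14, the stress kinase p38 alpha, had a mean of 0.48, with the brightest at 12658, 12932, 18073 and 18632. Camk4, a nuclear calcium and calmodulin-dependent kinase, was lower at 456, 434, 270 and 197.

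Cytokine and chemokine genes were mostly too dim, with 14 of 46 analysed and a median of 0.17. That median was 0.41 in the undigested and -0.09 in the digested samples. In 9 of the 14 the states had opposite directions, beside 42.5% of all analysed genes. Il6r, the interleukin 6 receptor, had 313, 214, 785 and 357 with differences of 1.33 and 0.74, and Tnfrsf1a, a receptor for tumour necrosis factor, had 957, 1715, 2345 and 1946. Cx3cl1, fractalkine, was lower, at 392, 351, 316 and 74.6, and low on the digested day 7 array alone. Below the analysed set, 1 probe set of the interleukin 1 beta gene Il1b read 22.7, 14.0, 299.98 and 172, while its other probe set stayed between 46.4 and 56.8. The immune markers with a probe set, Itgam and Il1b, were 2 of the 7 listed and summed to 146, 21.9, 318 and 265, with Il1b by the first of these probe sets and not by the other; their part in the cytokine differences was not tested.

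**Figure D4:**
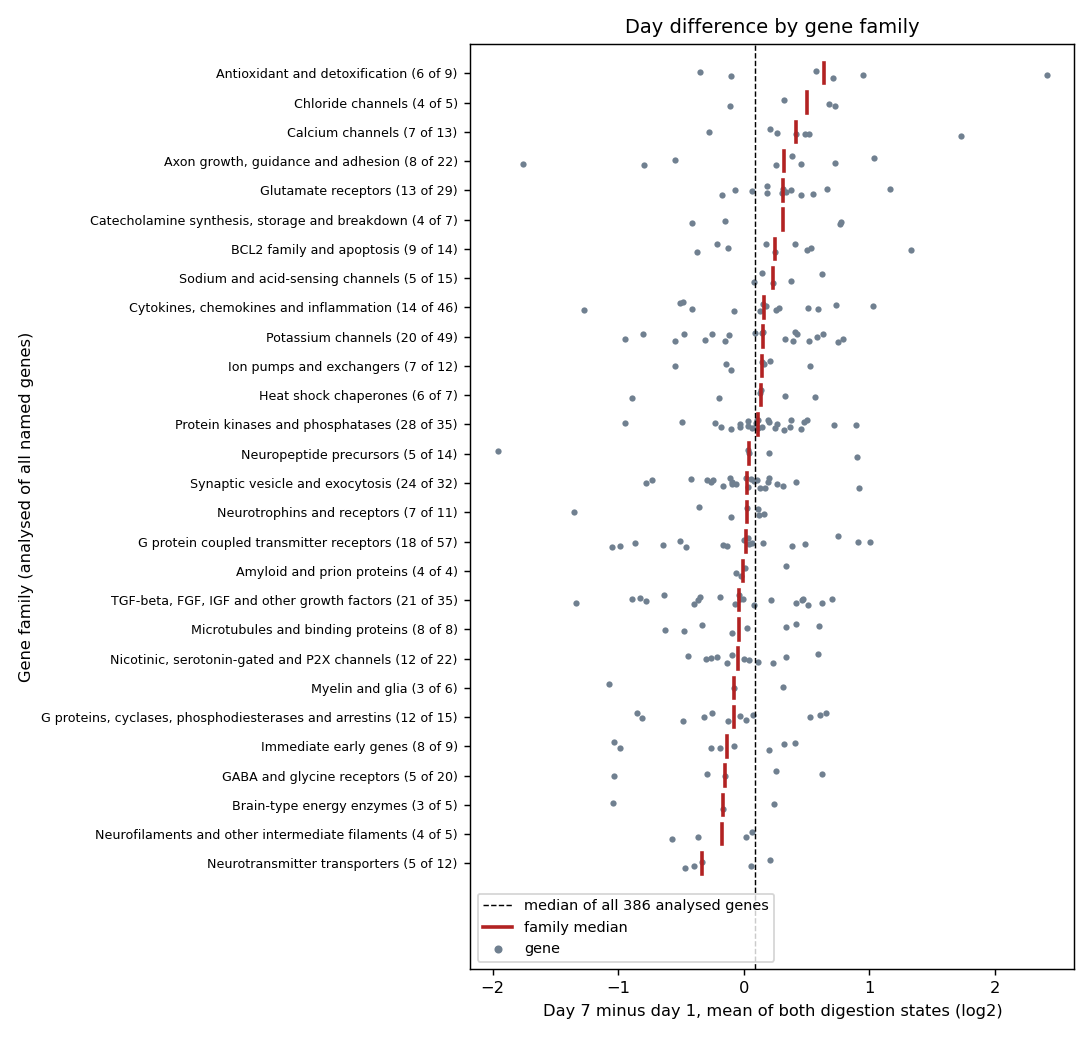
Day 7 minus day 1 (log2, mean of both digestion states, x axis) for the genes of 28 families with at least 3 analysed genes; grey points are genes, red bars family medians, and the dashed line is the median of all 386 genes, 0.09. Family medians run from -0.33 to 0.64, and 6 of them change sign under another scaling: neuropeptide precursors, synaptic vesicle, heat shock, GABA and glycine receptor, transmitter receptor and neurotrophin genes. The analysed set was chosen anew under each scaling.

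Across the 28 families with a median, 13 lay above the median of all genes and 22 kept their sign under both other scalings. The median had the same sign in the undigested and in the digested samples for 13. The lowest median was that of the neurotransmitter transporters, -0.33 over 5 of 12 genes, with 3 lower in both states, beside 22.5% of all analysed genes. These were Slc6a11, a GABA transporter, Slc18a3, the vesicular acetylcholine transporter, which read 5796, 6757, 5509 and 3727, and Slc6a4, the serotonin transporter. The myelin genes Cnp and Mag had means of 0.31 and -0.07, and the 4 myelin markers with a probe set summed to 2453, 2486, 3476 and 2566, highest on the undigested day 7 array.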

How the data were processed

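Total RNA of 4 rat samples was measured on 4 arrays. The authors deposited 1 linear signal intensity per probe set and array; how the signals were made and scaled was not given in the sources used here. The mean after trimming 2% at each end was 2515 to 2516 on every array. Median signals were 284, 260, 242 and 267, scale factors 0.925, 1.01, 1.09 and 0.984 (undigested and digested day 1, then day 7).

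Gene names came from the platform's probe table: 1137 probe sets named 1 gene, 8 several and 118 none. In the RefSeq table, 1132 gene identifiers matched and 0 symbols changed. Families were set by gene symbol, whatever their values; a gene's value was the mean over its analysed probe sets. Members, families and lists were chosen with earlier results of these data known, and the 1.5-fold rule for genes after the values were seen. With 1 array per group no replicate test was possible. Day and digestion were fitted additively with limma 3.58.1 in R 4.3.3, adjusted by Benjamini-Hochberg over the 632 probe sets; limma's SE is on the log2 scale. Other steps used Python 3.11.15, numpy 2.4.6 and pandas 2.3.3, and were tested on simulated data. Named by rule were the 10 genes each way with the largest mean difference among those of 1 direction in both states. Also named were up to 5 genes per family, among them the 1 with the largest gap between the states. The rule added 8 chromaffin genes and every probe set at least 2-fold in both states. Each gene was read by its brightest probe set. Not all named genes are described above. Among the 10 higher, Or1f32 (differences of 0.70 and 2.60) and Alg10 (1.46 and 0.54) were left out. Dim probe sets, genes singled out by their probe sets, and other family members were chosen after their values were seen. Alternatives were the values as deposited, quantile normalisation, another floor, an offset, no filter, the brightest 25%, 1.5-fold and 3-fold, 1 value per gene and each digestion state alone. Promoters were from RefSeq, assembly GRCr8.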

Additional observations from a re-analysis of the deposited data

Results flagged for a closer look

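Each named gene here was at least 1.5-fold higher at day 7 in 1 digestion state and at least 1.5-fold lower in the other. Each had been named because its gap between the states was the largest in its family. A large gap was thus part of the choice. The share of all analysed genes that meet the same rule was not counted. Opposite directions of any size were seen in 42.5% of all 386 analysed genes. All of these probe sets lay in the dimmest bin by signal (229 to 537). There, r between the states was 0.11 and 54.4% of probe sets had the same direction. With 1 array per group the difference between the states was not tested. The value is the digested minus the undigested day difference on the log2 scale. Nr4a3, an orphan nuclear receptor of the immediate early class, gave 3.80, from differences of -2.16 undigested and 1.64 digested, with an undigested day 7 signal of 65.2 near the floor. Slc32a1, the vesicular transporter of GABA and glycine, gave 1.94 (-0.76 and 1.17). Nos2, the inducible nitric oxide synthase, gave -2.57 (0.80 and -1.77). Chrm1, a muscarinic receptor, gave -1.89 (1.02 and -0.87). Kcna5, a voltage-gated potassium channel, gave -1.80 (1.05 and -0.75). Grin2d, an NMDA receptor subunit, gave -1.54 (0.77 and -0.77) by its brighter probe set, while the mean over both its probe sets was 0.18. The 4 genes with a negative value were higher at day 7 in the undigested samples alone.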

How the results depend on the processing

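With 1 array per group, calls by size depend on scaling, floor and filter; no spread between samples of a group was measured, and signals were not tested against background. Order below is 2-fold in both states higher and lower (main 5 and 6), then mean 2-fold higher and lower (main 18 and 26). Values as deposited gave 4, 6, 11 and 34, quantile normalisation 3, 8, 13 and 29, a floor at the 40th percentile 6, 5, 19 and 15, and an offset of 50 in place of the floor 4, 3, 10 and 15. No filter gave 27, 19, 78 and 65, the brightest 25% 1, 1, 4 and 6, and 1 value per gene 3, 3, 11 and 11. Thresholds of 1.5-fold gave 30, 28, 89 and 68, and of 3-fold 1, 0, 4 and 4. Leaving out 1 digestion state gave 21 to 46 higher and 30 to 38 lower by the mean rule: 46 and 38 for the undigested pair alone and 21 and 30 for the digested. The count of limma's adjusted p under 0.05 (main 1) was 0 as deposited, with quantile normalisation, with no filter, in the brightest 25% and with 1 value per gene, where 74, 79, 141, 64 and 38 probe sets or genes had an unadjusted p under 0.05; it was 17 with the higher floor and 3 with the offset. Limma's adjusted p of Gsta1 ranged from 0.00199 to 0.447. In the digested pair alone the mean of Cacnb1 turned from 1.74 to -0.25 and that of Tgfbr1 from -1.23 to 0.25 (3.72 and -2.71 in the undigested pair alone). Of the 117 named genes, 3 changed sign under another scaling: Atp2a2 (-0.03) and Hsp90ab1 (-0.08) after quantile normalisation and Chrm1 (-0.03) as deposited. Nr4a3 turned from -0.26 to 0.40 with the higher floor, and Grin2d from -0.00031 to 0.0086 with the offset. The filter and 1 value per gene change how many values are tested; otherwise the cause was not tested.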

Other observations

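Among the 631 probe sets too dim for the analysed set, 22 were at least 2-fold higher and 13 at least 2-fold lower at day 7 in both digestion states, but 16 and 8 of these had a value at the floor, so their sizes are set by it. These genes were singled out after their values were seen. Without a value at the floor, Il10, an anti-inflammatory cytokine, read 59.8, 133, 260 and 288 in the order undigested day 1, digested day 1, undigested day 7, digested day 7. Gabrb2, a GABA-A receptor subunit, read 103, 54.6, 296 and 122. Lower were Bcl2, which protects from apoptosis, at 200, 229, 76.0 and 65.3, and Adra2b, an alpha-2 adrenoceptor, at 305, 257, 99.1 and 67.0. Faslg, the death receptor ligand, read 23.3, 60.4, 241 and 192, with its undigested day 1 value at the floor. A dim probe set of Grip2 read 291, 263, 88.5 and 88.7, opposite in direction to the analysed one of that gene.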
